A study of Mus musculus with 22 samples.

Results

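Spinal cord below T6 (caudal cord) was compared between 48 h and 24 h after the aorta of mice had been clamped. The comparison rests on 7 of the series' 22 arrays, chosen by the region and time in their labels: 4 arrays labelled caudal and 48 h (271, 272, 273 and 274) and 3 labelled caudal and 24 h (281, 282 and 283). All groups were wild-type C57Bl/6 mice of 10 to 12 weeks. The clamp lasted 7.5 min in both time groups. Cross-clamping of the aorta is an established way to cut off the blood supply of the caudal cord and then restore it. The 3 caudal sham arrays (278, 279 and 280), from mice that had surgery without the clamp, served to tell which responses were already present at 24 h. Rostral cord (above T6), with 4 sham, 3 24 h and 4 48 h arrays, entered the pooled error and the test of a regional difference. Total RNA was hybridised to Affymetrix Mouse430_2 arrays. Whether each array of a group stands for its own mouse is not given in the labels, and p-values therefore reflect only the scatter among these samples, which may be technical. The question put to the data was which transcripts changed between the first and the second day, and which had changed by the first.

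Injured cells release molecules that toll-like receptors and interleukin 1 receptors sense, and both act through the transcription factor NF-kappaB to switch on cytokine and chemokine genes. Chemokines draw monocytes and neutrophils out of the blood, interleukin 6 acts on astrocytes and other cells through STAT3, and type I interferons switch on a separate set of antiviral genes through interferon-stimulated response elements. In spinal cord these programmes run in microglia, astrocytes and the vessel wall as well as in cells that enter from the blood, while the blood-brain barrier depends on transporters and junctions of the endothelium. Whole cord was measured, so a transcript that falls because fewer cells of a type were present cannot be told apart from one that falls within each cell.

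Some arrays stood apart. The array labelled caudal 283 (24 h) had a mean log2 level over 11 caudal Hox genes, which mark the posterior body axis, of 5.25. The other 9 caudal arrays had 6.61 to 6.99, the array labelled rostral 283 had 6.75 and the other rostral arrays in groups had 5.12 to 5.33. On the same array labelled caudal 283 the means of 6 adipocyte and 10 skeletal muscle genes were 6.82 and 7.34, against 4.71 to 5.95 and 6.00 to 6.75 on the other caudal arrays. Each array numbered 283 thus had the Hox level of the other region, and their region labels may be exchanged, which was not tested and bears on every 24 h and regional value that includes them. Both arrays were kept under their labels, and results are given with and without the array labelled caudal 283. The log2 values of caudal 48 h array 271 had a standard deviation of 2.05 (2.21 to 2.27 on each other array) and a mean pan-neuronal level of 11.41 (12.18 to 12.37 on the other 48 h arrays). Its lower quartile was 5.52 (5.17 to 5.27 elsewhere) and its median correlation with other arrays 0.912 (0.974 to 0.995 elsewhere). The part of this narrower range in the shifts of gene lists on array 271 was not tested. The Gapdh control's 5-prime minus 3-prime signal, which falls when RNA is degraded, was −1.05 on array 274 (caudal, 48 h) and −0.68 on array 280 (caudal, sham). Elsewhere it was between −0.21 and 0.04. Transcripts of heart muscle were higher at 48 h than at 24 h, as described below with their values. The 12 pan-neuronal genes, the check of the labelled tissue, had mean log2 levels of 11.41 to 12.51 on the caudal arrays.

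Between 24 h and 48 h, 1217 of 18193 genes differed (6.69%, limma with Benjamini-Hochberg adjusted p under 0.05). Of these 771 were higher at 48 h (4.24%) and 446 lower (2.45%), and a change of 2-fold or more was reached by 394 and 33 genes. The 48 h arrays did not overlap the 24 h arrays for 992 of the 1217 genes. Without the array labelled caudal 283, 256 genes passed, 232 higher (1.28%) and 24 lower (0.132%), and all 256 were among the 1217. A fit of the 7 compared arrays alone called 0 genes (1370 at an unadjusted p under 0.05), so the calls rest on the error pooled over all 6 groups. Of 129 named genes called with all groups, 0 passed in that fit and 4 in a fit of the 10 caudal arrays. Printed standard errors and p-values carry the pooled error, which understates scatter where the compared arrays vary more than the other groups. Against sham, 1004 genes were higher (5.52%) and 1275 lower (7.01%) at 48 h, while 1 gene passed at 24 h (0.00550%) with 529 at an unadjusted p under 0.05. Leaving out 1 array moved the 1217 by more than 1.5 times in 4 cases: to 379 without caudal array 282, 256 without the array labelled caudal 283, 2252 without array 273 and 3722 without array 274. These comparisons share arrays, so their values are set side by side and their overlap is not read as a result.

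The largest rises and falls were taken among called genes whose 48 h arrays did not overlap the 24 h arrays. Clone, RIKEN and predicted names were left aside. The lack of overlap in these genes is thus part of the choice and not a result. Of the 15 largest rises so chosen, 8 were in cytokine or chemokine genes, a count made after the genes were seen. Il6, the inflammatory cytokine interleukin 6, had log2 levels of 3.89, 4.03 and 3.92 on the sham arrays, 8.42, 3.87 and 3.89 on 24 h arrays 281, 282 and 283, and 12.49, 11.73, 10.67 and 9.45 on 48 h arrays 271 to 274. All 48 h arrays lay above all 24 h arrays, and only array 281 had left the sham range at 24 h. The log2 difference was 5.69 ± 0.81 (SE, adjusted p = 0.00068) and 4.94 ± 0.87 (adjusted p = 0.0111) without the array labelled caudal 283. Cxcl2, a chemokine that attracts neutrophils, had 3.67, 3.92 and 3.87 in sham, 4.89, 3.97 and 4.01 at 24 h and 11.28, 10.04, 9.18 and 6.67 at 48 h. The 24 h arrays were close to sham, and the 48 h arrays were all higher but spread over more than 4 log2 units. The difference was 5.0 ± 0.62 (adjusted p = 0.000228), and 4.86 ± 0.73 (adjusted p = 0.0037) without the array labelled caudal 283. In sham cord both genes were under the arrays' lower quartiles (5.17 to 5.52), near background, where a fold change is understated.

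Ccl2, which recruits monocytes, had 5.88, 5.75 and 5.79 in sham, 9.05, 6.41 and 6.03 at 24 h and 12.89, 12.86, 11.05 and 9.59 at 48 h. Array 281 again stood above the other 24 h arrays, and array 274 was the lowest of the 48 h arrays. The difference was 4.43 ± 0.75 (adjusted p = 0.00186) and 3.87 ± 0.82 without the array labelled caudal 283 (adjusted p = 0.0269). Il1b, the cytokine interleukin 1 beta, had 5.39, 5.33 and 5.55 in sham, 6.42, 5.71 and 5.50 at 24 h and 11.43, 10.83, 9.36 and 7.14 at 48 h. The 48 h arrays lay above all others, while the array labelled caudal 283 was within the sham range. The rise was 3.81 ± 0.61 (adjusted p = 0.00121), or 3.63 ± 0.70 (adjusted p = 0.0163) without that array. Tslp, a cytokine gene first known from thymic stroma, was near 4 on every sham and 24 h array (3.91 to 4.43) and reached 9.23, 8.15, 7.78 and 5.84 at 48 h, a rise of 3.58 ± 0.44 (adjusted p = 0.000228). The others of the 15 largest rises were Ptx3, a pattern-recognition protein of the innate response (4.50), AA467197 (4.03), Cxcl10 (3.94), Ccl3 (3.82), Chil3 (3.73), Acod1, the enzyme that makes itaconate in macrophages (3.62), Fga, a chain of fibrinogen (3.51), Rsad2 (3.49), Ifit1 (3.47) and Ccl7 (3.47). Array 281 was the highest of the 24 h arrays for 15 of these 15 genes, the array labelled caudal 283 the lowest for 12, and array 274 the lowest of the 48 h arrays for 14. Without the array labelled caudal 283, Cxcl10, Ccl3, Fga, Rsad2 and Ifit1 did not pass, with adjusted p-values from 0.0541 to 0.115, and the other 10 did.

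**Figure D1:**
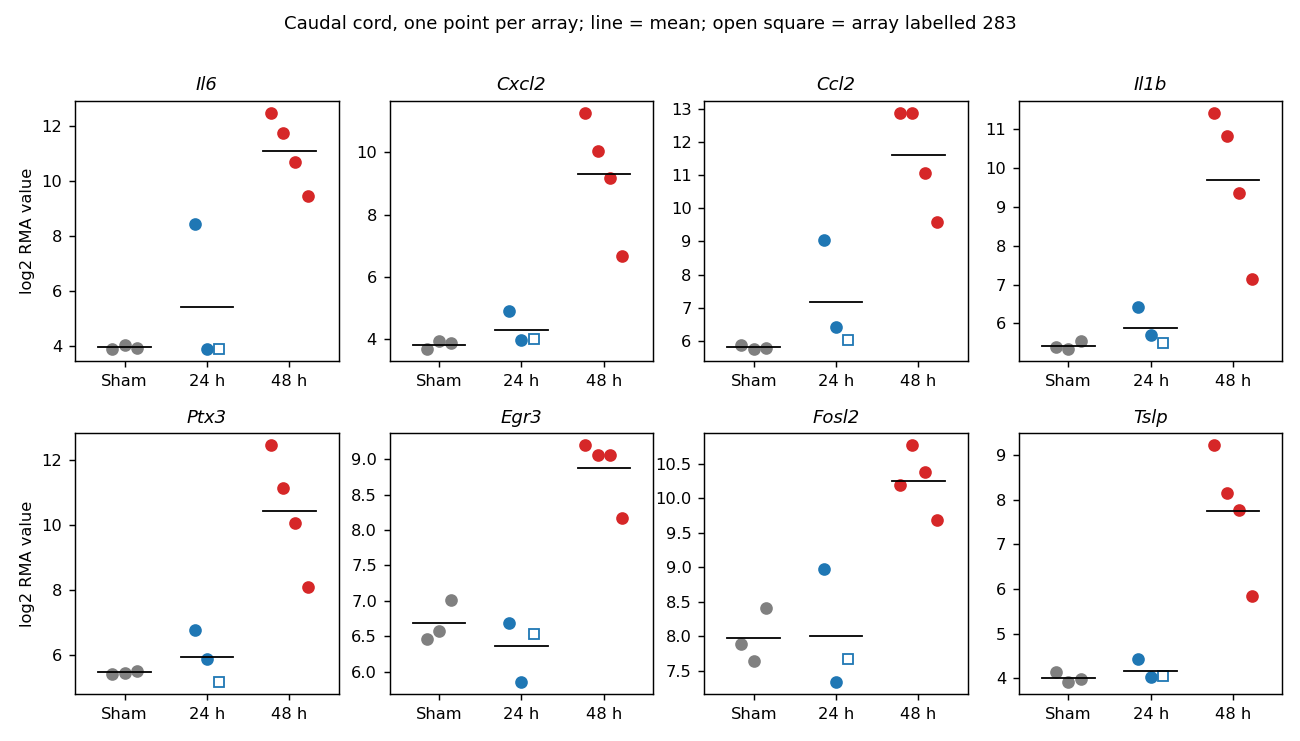
Log2 RMA values of 8 genes that were higher at 48 h than at 24 h, with 1 point per caudal array (3 sham, 3 at 24 h, 4 at 48 h), the group mean as a line and the array labelled caudal 283 as an open square. In each panel the 48 h points lie above the 24 h points. For Il6 and Ccl2 one 24 h point, array 281 (8.42 and 9.05), lies well above sham, while for Egr3 and Tslp all 24 h points are within 1 log2 unit of the sham range.

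The promoters of 4 of these genes are shown because they carry matches to the elements of the pathways named above. Each is the 250 bases before the annotated start site, 5′ to 3′ on the gene's strand, from RefSeq's GRCm38.p6. Capitals mark matches to kappaB (GGGA and TTCC with any 2 bases between them), AP-1 (TGANTCA) or ISRE (TTTC, any 2 bases and TTTC), searched on both strands. Il6 lies at chr5:30012864-30013113 on the plus strand, Cxcl2 at chr5:90903649-90903898 on the plus strand, Cxcl10 at chr5:92348890-92349139 on the minus strand and Ifit1 at chr19:34640639-34640888 on the plus strand.
Il6: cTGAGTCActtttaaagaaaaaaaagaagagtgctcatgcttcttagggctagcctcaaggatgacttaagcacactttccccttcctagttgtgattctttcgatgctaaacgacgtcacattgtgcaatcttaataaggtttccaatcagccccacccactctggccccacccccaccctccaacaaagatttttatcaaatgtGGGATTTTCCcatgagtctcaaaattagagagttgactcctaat
Cxcl2: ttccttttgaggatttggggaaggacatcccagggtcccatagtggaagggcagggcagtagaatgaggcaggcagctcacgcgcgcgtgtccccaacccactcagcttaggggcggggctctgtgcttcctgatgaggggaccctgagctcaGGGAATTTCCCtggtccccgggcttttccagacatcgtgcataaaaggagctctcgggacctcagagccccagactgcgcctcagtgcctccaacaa
Cxcl10: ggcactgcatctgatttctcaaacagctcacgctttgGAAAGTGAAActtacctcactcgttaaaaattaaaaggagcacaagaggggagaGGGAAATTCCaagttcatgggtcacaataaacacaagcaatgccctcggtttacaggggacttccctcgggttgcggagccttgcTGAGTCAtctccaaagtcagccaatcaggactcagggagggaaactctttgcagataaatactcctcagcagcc
Ifit1: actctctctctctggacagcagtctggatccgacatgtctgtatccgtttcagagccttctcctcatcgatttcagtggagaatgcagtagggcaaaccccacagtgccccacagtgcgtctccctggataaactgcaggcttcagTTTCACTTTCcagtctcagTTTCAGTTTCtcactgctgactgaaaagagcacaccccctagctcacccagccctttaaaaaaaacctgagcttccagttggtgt
The Il6 window holds 1 kappaB match that begins at −44 from the start site and 1 AP-1 match. The Cxcl2 window has kappaB matches on both strands that overlap in all but 1 base. Cxcl10 has 1 match each of ISRE, kappaB and AP-1, and Ifit1 has 2 ISRE matches, at −104 and −85. Of all 32851 promoter windows of 300 bases in the table (250 before and 50 after the start site), 1.47% hold a kappaB match, 7.81% an AP-1 match and 3.44% an ISRE match. Of the 15 largest rises, 12 matched the table by symbol, and 3, 4 and 3 of them hold a kappaB, AP-1 or ISRE match; of 12 matched among the 15 largest falls, none holds any. These matches describe letters in a window and not binding. Of 16 interferon-stimulated genes with a window, 8 hold an ISRE match.

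Among chemokine genes of the CC class, which act on monocytes and lymphocytes, 9 of 13 measured rose from 24 h to 48 h (6 without the array labelled caudal 283). The median difference over the 13 was 2.63, against −0.0012 over all genes. The median was 0.35 for 24 h against sham and 3.47 for 48 h against sham. Ccl4, a chemokine made by activated macrophages, had 6.92, 7.21 and 7.14 in sham, 9.88, 8.41 and 7.07 at 24 h and 11.49, 11.44, 10.62 and 10.78 at 48 h. Arrays 281 and 282 were above sham and the array labelled caudal 283 was within its range, and the 48 h minus 24 h difference was 2.63 ± 0.44 (adjusted p = 0.00175). Of 12 CXC and CX3C ligand genes 5 rose (2 without that array, Cxcl2 and Cxcl1). Cxcl1, a ligand of the neutrophil receptor CXCR2, was at 8.29 to 8.32 on all 24 h arrays, within or next to the sham range of 8.10 to 8.30, and at 10.40, 9.84, 9.26 and 8.77 at 48 h (1.26 ± 0.24, adjusted p = 0.00392). These levels are from the gene's probe set with the highest mean. Over 25 alternative settings of the processing its difference ranged from 0.98 to 2.94. The others of the 5 were Cxcl10, Cxcl9 (1.06) and Cxcl11 (1.26), ligands of the lymphocyte receptor CXCR3.

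Cytokine signalling genes rose with the ligands. In the interleukin 6 family 7 of 14 rose (1 without the array labelled caudal 283, Il6 itself), with a median of 0.80. Lif, a related cytokine, rose by 2.79 ± 0.56 (adjusted p = 0.0056), and Socs3, the feedback inhibitor of STAT3, by 3.58 ± 0.79 (adjusted p = 0.0106). Socs3 had 9.88, 7.08 and 6.42 at 24 h and 12.12, 12.12, 11.45 and 9.82 at 48 h, so arrays 281 and 274 overlapped. In the interleukin 1 family and inflammasome 10 of 13 rose (6 without that array, median 1.31). Il1a had 4.61, 4.40 and 4.55 in sham, 5.58, 4.58 and 4.59 at 24 h and 8.83, 7.89, 7.53 and 6.67 at 48 h (2.81 ± 0.33, adjusted p = 0.000144, and 0.00279 without the array labelled caudal 283). The 48 h arrays lay above all others, and the 24 h arrays overlapped sham. Casp1, the protease that matures interleukin 1 beta, rose by 1.31 ± 0.21 and Casp4, its relative that senses bacterial lipopolysaccharide, by 2.14 ± 0.38, and both passed without that array too. Of 14 tumour necrosis factor ligand, receptor and signalling genes 6 rose (3 without that array), among them Fas, a death receptor (1.37 ± 0.22), and Tnf itself (1.30 ± 0.27, adjusted p = 0.00679, and 0.0616 without that array).

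Of 11 NF-kappaB subunit and inhibitor genes 7 rose (3 without the array labelled caudal 283), with a median of 1.11. The 3 were inhibitors or regulators that NF-kappaB itself induces. Nfkbiz had 6.96, 6.88 and 7.0 in sham, 7.94, 7.10 and 6.64 at 24 h and 9.24, 9.59, 9.54 and 8.54 at 48 h. Tnfaip3, which encodes the inhibitor A20, rose by 2.60 ± 0.38 (adjusted p = 0.000795) and Nfkbia, which encodes IkappaB alpha, by 1.24 ± 0.22 (adjusted p = 0.00243). For all 3 genes the 48 h arrays lay above the 24 h arrays. Among toll-like receptor genes and adaptors 7 of 13 rose (4 without that array, median 0.65). Tlr2, the receptor for bacterial lipoproteins, had 6.49, 6.41 and 6.56 in sham, 8.19, 7.55 and 6.81 at 24 h and 10.79, 10.14, 9.64 and 8.92 at 48 h (2.36 ± 0.33, adjusted p = 0.000576). Its 24 h arrays all lay above sham, by 1.03 on average, without passing the test. Cd14, the coreceptor for lipopolysaccharide, followed the same order with 9.71, 8.44 and 7.70 at 24 h and 13.07, 12.53, 11.93 and 10.46 at 48 h (3.38 ± 0.49, adjusted p = 0.000715), and Tlr3, a sensor of double-stranded RNA, rose by 1.09 ± 0.14 (adjusted p = 0.000228).

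Immediate early genes, transcription factor genes that switch on within minutes of a stimulus, were higher at 48 h than at 24 h in 14 of 15 (9 without the array labelled caudal 283). Their median was 1.61, with 0.13 for 24 h against sham. Egr3 had 6.46, 6.57 and 7.01 in sham, 6.68, 5.85 and 6.54 at 24 h and 9.20, 9.06, 9.06 and 8.18 at 48 h. The 24 h arrays reached no higher than the sham arrays, and the 48 h arrays lay more than 1 log2 unit above both. The difference was 2.52 ± 0.24 (adjusted p = 1.79e-05) and 2.61 ± 0.28 without the array labelled caudal 283 (adjusted p = 0.000237). Ier2 had 8.60, 7.54 and 7.57 at 24 h and 10.04, 10.11, 9.80 and 9.06 at 48 h (1.85 ± 0.23, adjusted p = 0.000217), and Fosl2, a partner of Jun in AP-1, 8.98, 7.33 and 7.67 and then 10.20, 10.77, 10.38 and 9.68 (2.26 ± 0.32, adjusted p = 0.000638). In both, array 281 was the only 24 h array above sham. Atf3, also a marker of injured neurons, differed in that all 3 of its 24 h arrays (8.60, 7.28 and 6.93) lay above the sham arrays (6.25, 6.39 and 6.58), and it rose further to 10.90, 10.41, 9.81 and 8.96 (2.42 ± 0.37, adjusted p = 0.000973). Arc, a gene of active synapses, was the 1 member that did not pass (0.10). It was named after its value had been seen.

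**Figure D2:**
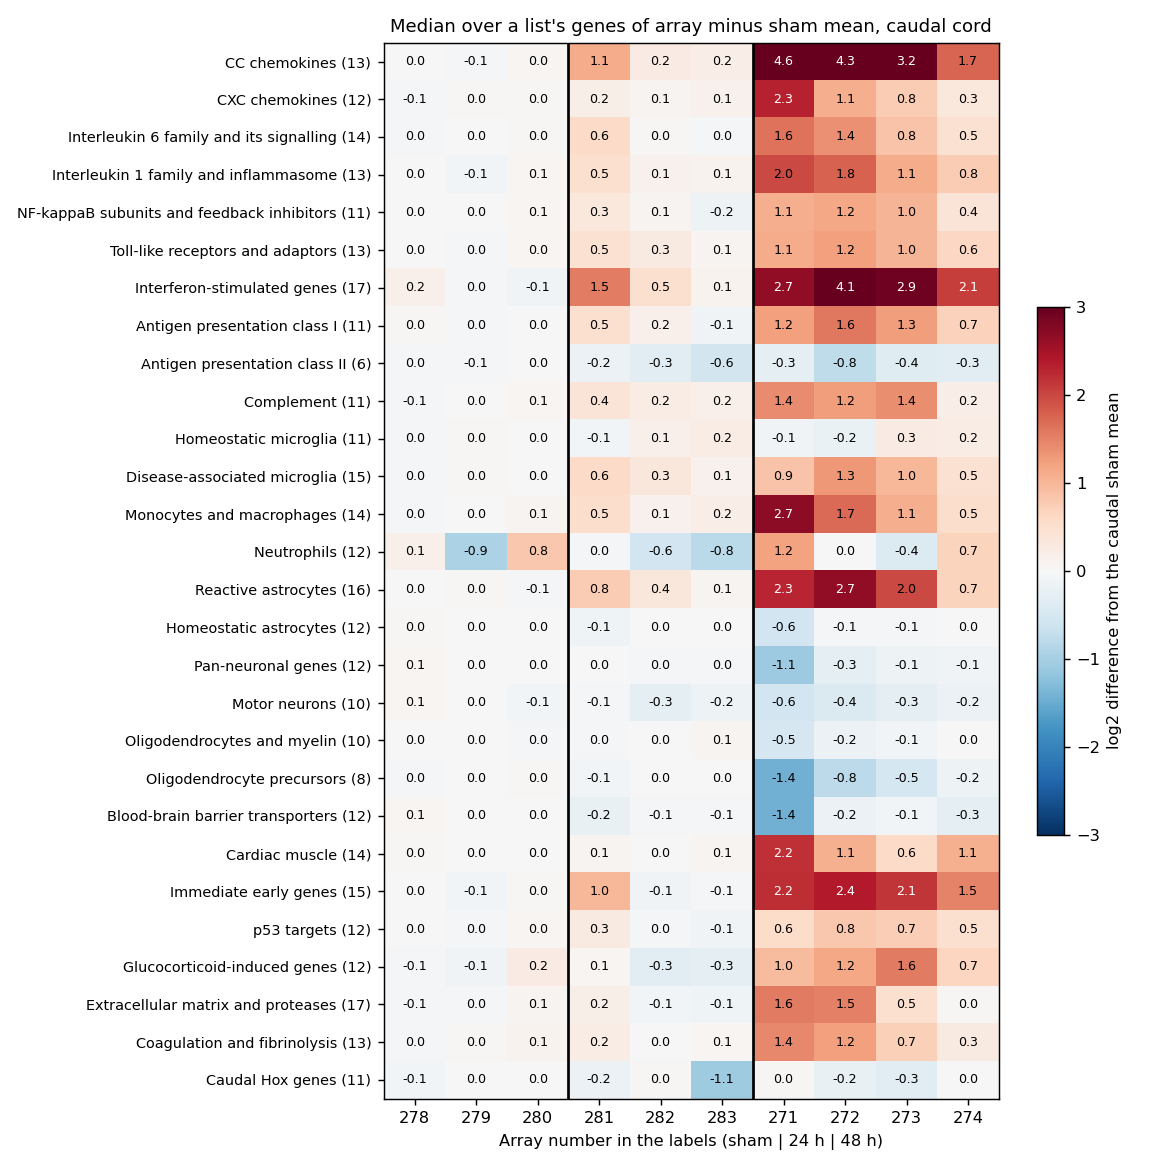
Median over the genes of each of 28 lists of the log2 level on an array minus the caudal sham mean, for the 10 caudal arrays in label order (number of genes measured in brackets, colour from −3 to 3). CC chemokine genes stood at 1.11, 0.25 and 0.19 on 24 h arrays 281, 282 and 283 and at 4.58, 4.35, 3.19 and 1.74 on 48 h arrays 271 to 274. Most inflammatory lists have their highest 24 h value on array 281 and their lowest 48 h value on array 274, and the neuronal lists are lowest on array 271.

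Interferon-stimulated genes stood above sham on 24 h arrays 281 and 282 and on all 48 h arrays by their list median. Of 17 measured, 15 rose between 24 h and 48 h (5 without the array labelled caudal 283), with a median of 2.09. The median of 24 h minus sham was 0.71, and 0.93 without that array. Per array the median shift from sham was 1.54, 0.49 and 0.10 at 24 h and 2.67, 4.06, 2.91 and 2.08 at 48 h, and 0.46 on the array labelled rostral 283 against 0.03 on both other rostral 24 h arrays. Ifit1, which encodes a protein that binds foreign RNA, had 7.72, 7.45 and 7.32 in sham, 10.52, 8.55 and 7.44 at 24 h and 13.20, 12.79, 11.72 and 11.52 at 48 h. The array labelled caudal 283 was in the sham range and the other 24 h arrays lay between sham and 48 h. The difference of 3.47 ± 0.67 (adjusted p = 0.00427) became 2.77 ± 0.69 (adjusted p = 0.0541) without that array. Cxcl10, a chemokine induced by interferon, had 6.17, 6.21 and 6.08 in sham, 11.37, 7.87 and 6.89 at 24 h and 12.10, 13.71, 12.93 and 11.87 at 48 h. All its 24 h arrays were above sham, and array 281 was within 1 log2 unit of the lowest 48 h array. Its difference of 3.94 ± 0.80 (adjusted p = 0.00615) became 3.03 ± 0.82 (adjusted p = 0.0723). Calls held without the array labelled caudal 283 for Cmpk2 (1.53 ± 0.22), Ifit2 (2.81 ± 0.42), Ifih1, an RNA sensor (2.31 ± 0.37), Oas1a (2.09 ± 0.37) and Irf7, the transcription factor that amplifies the response (2.49). Stat2 (0.50) and Ddx58 (1.16) did not pass. Over alternative settings of the processing Stat2 ranged from −0.08 to 1.76 and passed as higher in 3 of 24. Ddx58 ranged from 0.81 to 1.94 and passed as higher in 7 of 25. Irf7, Stat2 and Ddx58 were named after their values had been seen.

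Class I antigen presentation genes, which interferon also induces, rose in 9 of 11 (3 without the array labelled caudal 283, median 0.88). Tap1, the peptide transporter, had 7.90, 7.31 and 6.74 at 24 h and 9.62, 10.35, 9.26 and 8.46 at 48 h (2.11 ± 0.37, adjusted p = 0.00237, with the opposite sign in 1 of 3 other probe sets). H2-K1, a class I heavy chain, rose by 1.19 ± 0.21 and Psmb9, an immunoproteasome subunit, by 2.04 ± 0.38, and both also passed without that array. Of 6 class II genes 0 passed with limma (0 at an unadjusted p under 0.05), with a median of −0.10. Complement genes rose in 6 of 11 (2 without that array, median 0.78). C1qc and C1qa, chains of the first component, rose by 1.11 ± 0.15 and 0.90 ± 0.14. At 24 h C1qa stood at 11.10, 10.92 and 10.77 against 10.39, 10.35 and 10.64 in sham and 12.10, 11.53, 11.86 and 11.83 at 48 h. The 3 groups did not overlap and ran in the order sham, 24 h and 48 h.

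Lpl, the enzyme that releases fatty acids from lipoproteins and is also raised in phagocytic microglia, was the 1 gene that passed at 24 h against sham. It had 8.0, 8.04 and 8.15 in sham, 9.76, 9.73 and 9.51 at 24 h and 10.44, 10.21, 10.13 and 10.39 at 48 h. All 3 groups were apart, and the array labelled caudal 283 was close to the other 24 h arrays. The 24 h minus sham difference was 1.60 (adjusted p = 0.00903, and 0.0366 without that array). The call was lost without any one of caudal arrays 281, 282, 278, 279 and 280, and with array 276 counted as rostral 24 h. The 48 h minus 24 h difference was 0.63 ± 0.20 (adjusted p = 0.0668, and 0.259 without the array labelled caudal 283). Heart muscle expresses Lpl too, and the cardiac genes described below had shifts from sham of 0.02 to 0.08 on the 24 h arrays. At 48 h the part of heart muscle in the Lpl level was not tested. Median shifts from sham on 24 h arrays 281, 282 and 283 were 0.02, 0.17 and 1.65 for adipocyte genes. For skeletal muscle genes they were −0.04, 0.17 and 1.09. The part of fat or skeletal muscle in the Lpl level of the array labelled caudal 283 was not tested.

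Genes already present at 24 h were taken as those with every 24 h and 48 h array outside the sham range on the same side and at least 2-fold from sham at both times. There were 17 (0.0934% of genes), all higher, of which 13 rose further by 48 h. The 17 became 10 without array 281 and 46 without the array labelled caudal 283. The 4 that did not pass between the times were Lpl, Hspa1a, Hspa1b and Saa3. Hspa1a, an inducible heat shock chaperone gene, had 8.02, 8.20 and 8.18 in sham, 9.53, 9.78 and 8.75 at 24 h and 10.11, 10.67, 9.43 and 9.87 at 48 h. The 24 h and 48 h arrays overlapped, and the difference was 0.67 ± 0.35 (adjusted p = 0.238). Hspa1b, its near-identical neighbour whose signal may not be separable from it, had 9.55, 9.54 and 9.30 at 24 h against 7.91, 8.37 and 8.60 in sham and 11.41, 10.76, 9.33 and 10.38 at 48 h (1.01 ± 0.46, adjusted p = 0.178). Saa3, an acute phase protein gene, had 7.08, 7.01 and 7.17, then 8.93, 7.90 and 8.02, then 13.59, 12.54, 11.06 and 8.41 (3.11 ± 0.99, adjusted p = 0.0666). Its 48 h arrays spread over more than 5 log2 units and array 274 overlapped the 24 h arrays, so a failure to pass does not show a plateau.

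Without the array labelled caudal 283, 46 genes were outside sham at both times (0.253%), all higher, and 28 of these did not pass between 24 h and 48 h. The 2 remaining 24 h arrays leave less to test with, and 24 h minus sham itself passed for Lpl alone among the 15 named here. Besides Lpl and Hspa1a, these were Ccl3, Ccl12, Cd68, Cxcl10, Plek, Gpr84, Ctsc, Ifit3, Usp18, Clec7a, C3ar1, Trim30a and Rsad2. Ccl3, a chemokine made by activated macrophages and microglia, had 4.29, 4.68 and 4.23 in sham, 9.56, 7.58 and 4.78 at 24 h and 11.14, 11.96, 11.14 and 10.26 at 48 h. Arrays 281 and 282 had covered much of the distance to 48 h, and the array labelled caudal 283 was just above the sham arrays. With all arrays the 48 h minus 24 h difference was 3.82 ± 0.84 (adjusted p = 0.0104) and 24 h minus sham 2.90; without that array they were 2.56 ± 0.75 (adjusted p = 0.101) and 4.17 (adjusted p = 0.215). Cd68, a lysosomal protein of phagocytes, had 9.09, 9.03 and 7.78 at 24 h against 7.36 to 7.45 in sham and 10.48, 9.96, 9.83 and 9.24 at 48 h. Its 48 h minus 24 h difference went from 1.24 ± 0.35 (adjusted p = 0.0376) to 0.81 ± 0.34 (adjusted p = 0.259). Clec7a, a receptor for fungal glucans that marks activated microglia, had 9.26, 8.72 and 7.46 at 24 h, 7.26 to 7.62 in sham and 12.18, 10.08, 10.30 and 10.08 at 48 h. In each of these 3 genes the array labelled caudal 283 lay at or near sham and the other 24 h arrays clearly above it.

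**Figure D3:**
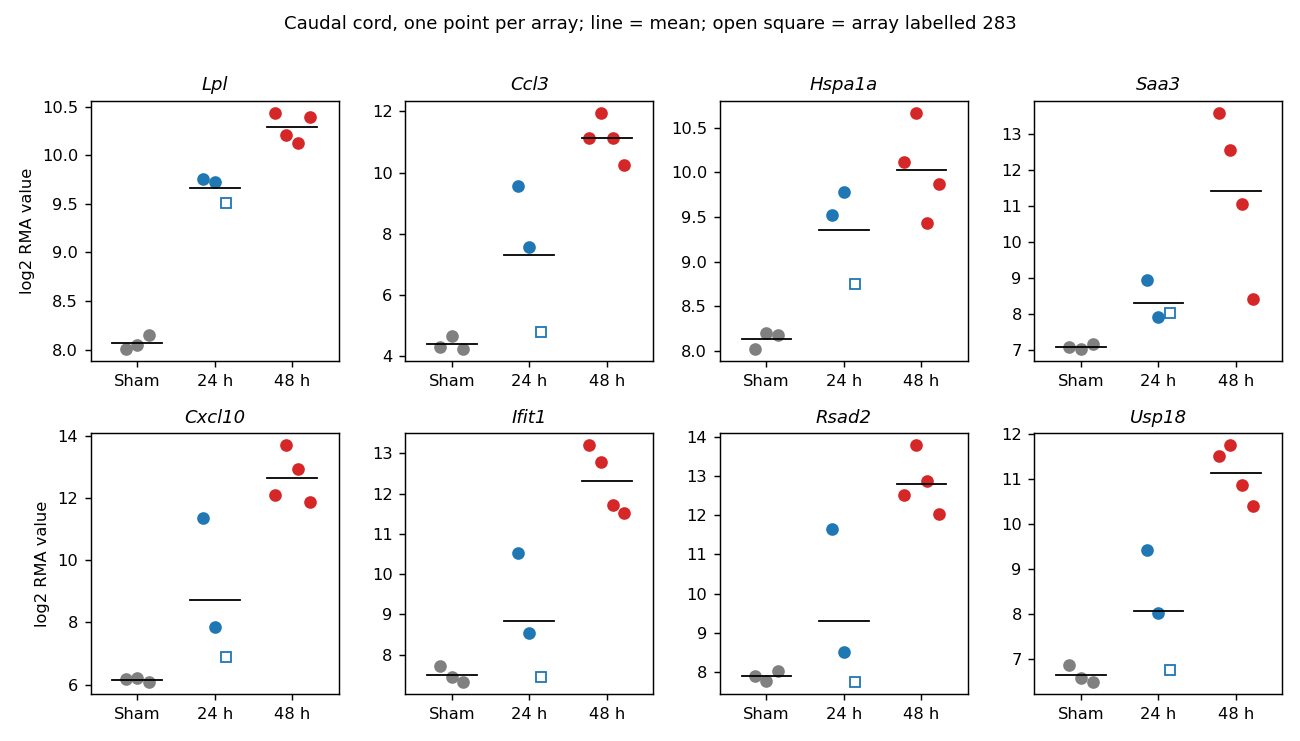
Log2 RMA values of 8 genes on the 10 caudal arrays, drawn as in the plot of late genes, with the array labelled caudal 283 as an open square. Lpl, Hspa1a and Saa3 are above sham on all 24 h arrays. Ccl3, Cxcl10, Ifit1, Rsad2 and Usp18 are above sham on 24 h arrays 281 and 282, and the open square is at or near sham (4.78 for Ccl3 and 7.44 for Ifit1) except for Cxcl10, where it is above sham (6.89).

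Markers of immune and glial cells moved between the times to different extents. Monocyte and macrophage genes rose in 8 of 14 (6 without the array labelled caudal 283), with a median of 1.44. Cybb, the catalytic subunit of the phagocyte oxidase, had 6.48, 6.13 and 6.68 in sham, 7.26, 6.28 and 5.85 at 24 h and 9.13, 9.69, 8.81 and 8.09 at 48 h (2.47 ± 0.32, adjusted p = 0.000325). The 48 h arrays were apart from both other groups, which overlapped. Fcgr1, the high-affinity receptor for immunoglobulin G, rose by 1.83 ± 0.27, after 24 h arrays at 8.36, 7.55 and 6.99 against 6.53 to 6.80 in sham. Genes of disease-associated microglia rose in 4 of 15 (1 without that array): Cst7, Tyrobp, Clec7a and Lgals3. Cst7, a cystatin, had 4.70, 4.82 and 4.81 in sham, 5.54, 5.20 and 4.96 at 24 h and 7.22, 7.33, 6.73 and 6.47 at 48 h. It ran in the order sham, 24 h and 48 h without overlap, and the last step was 1.70 ± 0.17 (adjusted p = 4e-05, and 0.000911 without that array). Of 11 genes of homeostatic microglia Fcrls rose (1.17 ± 0.17, adjusted p = 0.000715) and Sall1 fell by 0.62 (SE 0.18, adjusted p = 0.045, and 0.174 without that array), and the median of the 11 was −0.09. Neutrophil genes rose in 3 of 12 (none passed with limma without that array): Lcn2 (3.13), Mmp8 (2.02) and S100a9 (2.19). S100a9 had 10.63, 9.09 and 11.19 in sham, so that its 48 h levels of 13.28, 11.58, 9.80 and 11.23 overlapped sham. Of 9 lymphocyte genes 0 passed with limma (0 at an unadjusted p under 0.05).

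Genes of reactive astrocytes rose in 11 of 16 (1 without the array labelled caudal 283, Ptx3), with a median of 1.52 and of 0.36 for 24 h minus sham. Timp1, an inhibitor of matrix proteases, had 6.60, 6.66 and 7.01 in sham, 8.81, 7.25 and 7.19 at 24 h and 11.89, 11.58, 10.33 and 8.76 at 48 h. Every 24 h array was above sham, and array 281 at 24 h reached array 274 at 48 h. The difference was 2.89 ± 0.61 (adjusted p = 0.00821), or 2.61 ± 0.70 (adjusted p = 0.0728) without the array labelled caudal 283. Emp1, a membrane protein, rose by 2.09 ± 0.44 with 24 h arrays at 8.38, 7.95 and 7.90, inside or next to the sham range (7.83 to 8.24). Of 12 genes of homeostatic astrocytes 0 passed with limma (2 higher and 3 lower at an unadjusted p under 0.05). Leukocyte adhesion genes rose in 3 of 10 (0 without that array): Icam1 (2.24), Itgb2 (1.13) and Vcam1 (0.69).

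Stress and growth genes rose in part of most lists. Targets of p53 rose in 7 of 12 (2 without the array labelled caudal 283, median 0.72): Btg2, an inhibitor of proliferation, had 8.85, 8.74 and 8.98 in sham, 9.55, 8.23 and 8.35 at 24 h and 11.03, 10.87, 10.70 and 10.47 at 48 h (2.06 ± 0.23, adjusted p = 8.7e-05). Its 48 h arrays stood apart from both other groups. Cdkn1a, the cell cycle inhibitor p21, rose by 1.97 ± 0.41, with array 274 (10.55) far below the other 48 h arrays (12.16 to 12.24). Glucocorticoid-induced genes rose in 7 of 12 (2 without that array), with a median of 1.18 and of −0.20 for 24 h minus sham. The 2 were Dusp1, a phosphatase of MAP kinases (1.24 ± 0.21), and Errfi1, an inhibitor of the EGF receptor (1.17 ± 0.19). Cell cycle genes rose in 7 of 19 (3 without that array, median 0.40), among them Ccnb2, a mitotic cyclin, from 5.26 to 5.38 at 24 h to 5.99 to 6.57 at 48 h (0.93 ± 0.13, adjusted p = 0.000464). Of 11 cholesterol synthesis and uptake genes and 13 circadian genes, 0 were higher with limma. The other stress lists not yet described each had a larger share higher than the 4.24% of all genes, though on 1 to 3 genes. They were hypoxia and glycolysis with 3 of 15 (Hk2 0.95, Ldha 0.94, Adm 0.89) and NRF2 targets and metallothioneins with 2 of 12 (Mt2 1.04, Hmox1 2.40). The unfolded protein and integrated stress response had 2 of 14 (Ppp1r15a 1.10, Atf4 0.69) and heat shock chaperones 1 of 12 (Hspb1 1.63). Without the array labelled caudal 283 these counts were 1, 1, 1 and 0.

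Genes of the matrix and of clotting also rose late. Of 17 matrix and protease genes 8 rose (1 without the array labelled caudal 283, Adamts1) and Mmp2 fell by 0.60. Adamts1, a protease of proteoglycans, had 7.54, 7.74 and 7.44 in sham, 8.71, 7.95 and 7.82 at 24 h and 10.12, 10.82, 10.52 and 8.83 at 48 h (1.91 ± 0.36, adjusted p = 0.00376). Every 48 h array lay above the 24 h arrays, with array 274 only just so. Of 13 genes of coagulation and fibrinolysis 5 rose (2 without that array, median 0.84). Plaur, the receptor of urokinase, had 7.58, 7.20 and 6.91 at 24 h and 10.36, 9.47, 9.31 and 8.40 at 48 h (2.15 ± 0.31, adjusted p = 0.00068), and Procr, the receptor of protein C, rose by 2.47 ± 0.52. The others were F13a1 (1.01), F10 (0.68) and Tfpi2 (2.82). Among growth factors Csf3, which makes the bone marrow release neutrophils, was at 6.42 to 6.50 on the 24 h arrays, near the sham range of 6.26 to 6.35, and at 10.31, 9.55, 9.12 and 6.88 at 48 h (2.51 ± 0.46, adjusted p = 0.0033), and Hbegf rose by 1.68 ± 0.28. Ptgs2, the inducible cyclooxygenase, had 8.07, 6.90 and 6.54 at 24 h against 5.74 to 6.41 in sham and 11.86, 11.03, 9.43 and 8.92 at 48 h (3.14 ± 0.61, adjusted p = 0.00429).

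Falls were smaller than rises, and those of genes of vessels and of the oligodendrocyte lineage stood among the largest. Of all genes 2.45% were lower at 48 h. Slc38a5, a glutamine transporter gene, had 8.60, 8.16 and 8.65 in sham, 8.75, 8.57 and 8.53 at 24 h and 6.10, 6.07, 6.46 and 8.23 at 48 h. Arrays 271, 272 and 273 were low and array 274 was in the sham range. The difference was −1.90 ± 0.43 (adjusted p = 0.0116, and 0.0588 without the array labelled caudal 283). Gpr17, a receptor of oligodendrocyte precursors on their way to myelination, had 9.22, 9.45 and 9.15 in sham, 8.85, 9.39 and 9.48 at 24 h and 7.07, 7.15, 8.01 and 8.23 at 48 h. The 48 h arrays lay below all others, and the 24 h arrays overlapped sham (−1.63 ± 0.28, adjusted p = 0.00237, and −1.50 ± 0.32 with 0.0289 without that array). Of 8 precursor genes 3 fell (1 without that array), with Olig2 (−0.99) and Bmp4 (−0.65) beside Gpr17, and the median was −0.64. The list's shift from sham was −1.45 on array 271 and −0.79, −0.52 and −0.16 on arrays 272 to 274. Of 10 myelin genes 2 fell (0 without that array): Ugt8a, of galactolipid synthesis (−1.01 ± 0.25), and Aspa, which cleaves N-acetylaspartate (−1.12 ± 0.28).

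Over all genes 2.45% were lower and 4.24% higher at 48 h. Of 12 transporters of the blood-brain barrier 5 fell and 0 rose with limma, with a median of −0.22 (2 higher at an unadjusted p under 0.05). The list's median shift from sham was −1.44 on array 271, −0.18, −0.08 and −0.26 on arrays 272 to 274 and −0.23, −0.05 and −0.05 on the 24 h arrays, so at the level of the list array 271 stood apart. Slco1a4, an organic anion transporter, had 10.32, 10.20 and 9.88 in sham, 9.76, 10.57 and 10.60 at 24 h and 8.67, 9.44, 9.11 and 9.26 at 48 h. Every 48 h array lay below every 24 h and sham array (−1.19 ± 0.20, adjusted p = 0.00212, and 0.0289 without the array labelled caudal 283). Slco1c1, a transporter of thyroxine, had 9.52, 10.04 and 10.23 at 24 h and 8.16, 7.82, 8.38 and 9.49 at 48 h (−1.47 ± 0.31, adjusted p = 0.00738, and 0.0678 without that array). The others were Abcb1a, a drug efflux pump (−0.91), Slc22a8 (−0.84) and Slc38a3 (−0.66), none of which passed without that array. Of 13 endothelial and junction genes 1 fell, Tek, the receptor of the angiopoietins: 7.70, 7.98 and 8.01 at 24 h and 5.51, 6.70, 6.06 and 7.38 at 48 h (−1.49 ± 0.30, adjusted p = 0.00631, and 0.0521 without that array). In the same system Angpt2, its antagonist ligand, rose by 1.11 ± 0.25 and Angptl4 by 2.89 ± 0.61, and neither passed without that array. Cldn5, the main claudin of brain endothelium, had 9.89, 10.17 and 9.90 at 24 h and 9.47 to 9.60 at 48 h and did not pass (−0.43 ± 0.16, adjusted p = 0.11). The others of the 15 largest falls were Sox2ot (−1.51), Gab1 (−1.38), Ddit4l (−1.36), Serpinb1a (−1.33), Gpr37, a receptor of myelinating cells (−1.31), Sgpp2 (−1.23), Gucy1a1 (−1.22), Itm2a (−1.15), Dip2a (−1.15) and Rasgrp3 (−1.14). Array 271 was the lowest of the 48 h arrays for 12 of the 15, and array 274 the highest for 11.

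**Figure D4:**
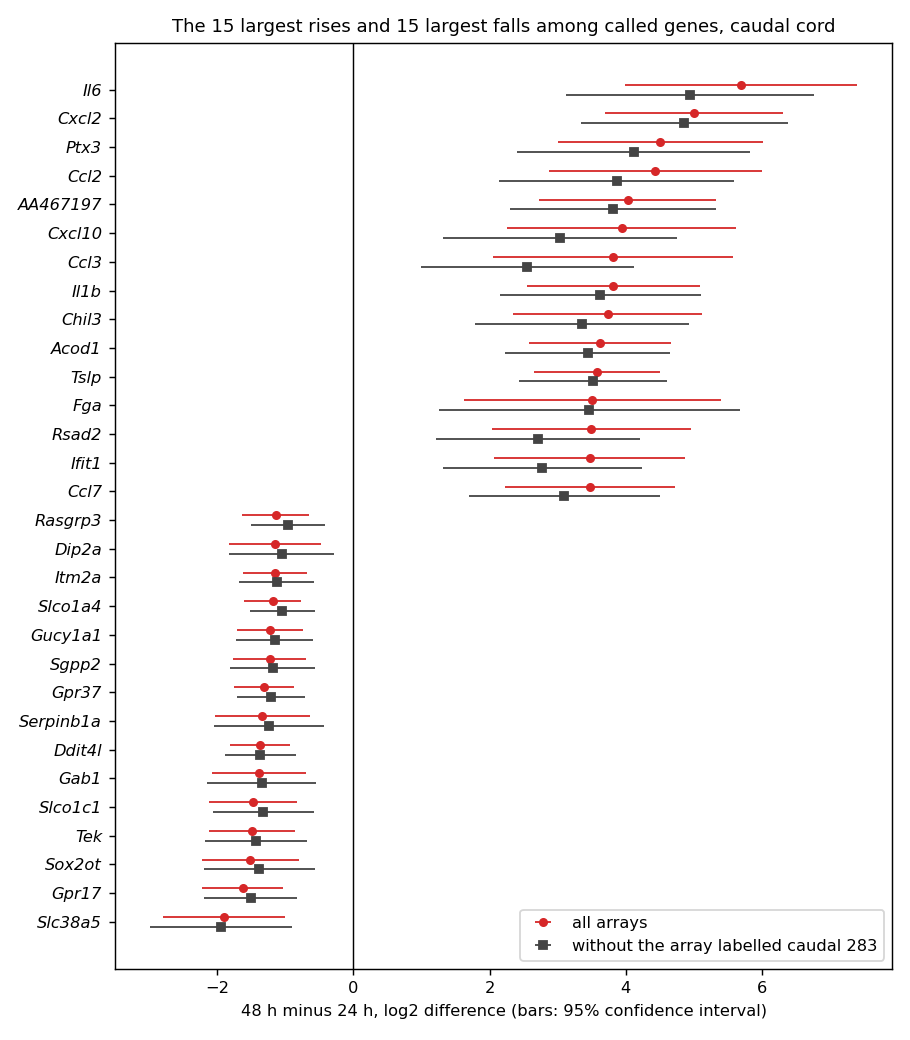
Log2 difference of 48 h minus 24 h with its 95% confidence interval for the 15 largest rises and the 15 largest falls, from all arrays (circles) and without the array labelled caudal 283 (squares). The genes were chosen for passing, with groups that did not overlap, in the fit of all arrays. The intervals of the circles thus exclude 0 by that choice. Those of the squares, which reuse all the other arrays, also exclude 0 for all 30 genes before adjustment. The estimate moved most for Ccl3, from 3.82 to 2.56, and the falls lie between −1.90 and −1.14.

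Neuronal genes gave few calls between the times, beside 2.45% of all genes lower at 48 h. At an unadjusted p under 0.05 with limma, 2690 of all 18193 genes were lower. Of 12 pan-neuronal genes 0 passed with limma between the times (8 lower at an unadjusted p under 0.05), with a median of −0.35. The median shift from sham was −1.08 on array 271, −0.28, −0.15 and −0.11 on arrays 272 to 274 and −0.02 to −0.03 on the 24 h arrays. Rbfox3, the NeuN gene, had 12.47, 12.43 and 12.58 at 24 h and 11.03, 12.19, 12.35 and 11.98 at 48 h (−0.60 ± 0.20, adjusted p = 0.0721, with the opposite sign in 1 of 2 other probe sets). Of 10 motor neuron genes 0 passed (4 lower at an unadjusted p under 0.05, median −0.31). Chodl, a marker of fast motor neurons, had 9.11, 9.08 and 9.01 at 24 h and 7.14, 7.28, 8.55 and 9.42 at 48 h, where array 274 lay above the 24 h arrays. Of 8 genes of inhibitory transmission Gabrb2, a subunit of the GABA-A receptor, fell by 0.62 (SE 0.16, adjusted p = 0.0289), and of 11 synaptic genes Bsn, of the presynaptic active zone, fell by 0.64 (SE 0.16, adjusted p = 0.0259). Neither passed without the array labelled caudal 283. Among 13 circadian genes Per3 fell by 0.99 (SE 0.29, adjusted p = 0.0487, and 0.174 without the array labelled caudal 283), with array 271 at 6.46 and the other 48 h arrays at 7.82 to 8.35. Single calls in lists of 8 to 13 genes are not read as changes of the lists.

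Transcripts of heart muscle were higher at 48 h on all 4 caudal arrays. Of 14 cardiac genes 6 rose between 24 h and 48 h (5 without the array labelled caudal 283) and Ryr2, a calcium release channel that neurons also express, fell by 0.67. Actc1, the cardiac actin gene, had 5.30, 5.30 and 5.38 in sham, 5.47, 5.39 and 5.35 at 24 h and 7.78, 7.89, 6.91 and 7.49 at 48 h (2.12 ± 0.25, adjusted p = 0.000157). The 24 h arrays were at the sham level. Myl2, a ventricular myosin light chain, rose by 2.91 ± 0.51, Tnnt2, cardiac troponin T, by 2.04 ± 0.29 and Myh6, a cardiac myosin heavy chain, by 1.95 ± 0.35. The median shift of the list from sham was 2.19, 1.06, 0.57 and 1.07 on caudal arrays 271 to 274 and 2.67, 4.87, 4.84 and 4.45 on rostral arrays 271 to 274. Its part in the other rises at 48 h was not tested. Of 5 Schwann cell genes 2 rose, Egr2 and Pou3f1 (0 without the array labelled caudal 283), and the list's median shift from sham was −1.59 on that array and −0.14 and −0.26 on 24 h arrays 281 and 282. Of other tissue markers, with limma, none passed in 4 lists: 0 of 6 sensory ganglion, 0 of 3 erythroid, 0 of 10 skeletal muscle and 0 of 6 adipocyte genes (0, 0, 0 and 1 at an unadjusted p under 0.05).

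The change from 24 h to 48 h differed between caudal and rostral cord for 35 genes in a test of the difference itself, 17 with the larger change in caudal cord (0.0934%) and 18 with the smaller (0.0989%). The 35 became 20 without the array labelled caudal 283, 160 without array 274 and 11 without both arrays numbered 283. In rostral cord alone 66 genes passed between 24 h and 48 h. The 5 smallest p-values belonged to Actc1 (−3.94), Cox6a2 (−2.77), Ckmt2 (−3.95), Tnnt2 (−3.19) and Myom1 (−2.35), genes of heart and muscle that rose more in rostral cord. Of 14 cardiac list genes 7 differed between the regions. Lpl was among the 18 as well, with a difference of −1.72 (SE 0.28, adjusted p = 0.0079); it was at 8.47, 8.60 and 9.38 on rostral 24 h arrays 281, 282 and 283 and at 10.79, 11.74, 11.20 and 10.92 on rostral 48 h arrays, where the cardiac genes were highest.

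The genes that rose more in caudal cord included Egr3. On rostral arrays Egr3 had 6.29, 6.64 and 5.99 at 24 h and 6.31, 6.25, 6.85 and 6.70 at 48 h, so its rostral groups overlapped, and the difference of the changes was 2.29 ± 0.34 (adjusted p = 0.00348, and 2.54 ± 0.39 with 0.0141 without both arrays numbered 283). Cst7 differed by 1.63 ± 0.25 (adjusted p = 0.00365), Tlr3 by 1.36 ± 0.19 (adjusted p = 0.00231), Il1a by 2.65 ± 0.47 (adjusted p = 0.0155), Tslp by 3.58 ± 0.63 (adjusted p = 0.0155), Fcrls by 1.26 ± 0.24 (adjusted p = 0.0321), Cybb by 2.40 ± 0.46 (adjusted p = 0.0321) and Cxcl2 by 4.53 ± 0.88 (adjusted p = 0.0394). All 7 lost the call without both arrays numbered 283, with adjusted p-values from 0.054 to 0.525, while their differences stayed between 0.86 and 4.44. Most of the cytokine genes with the largest caudal rises did not pass this test: for Ccl3 the difference was 3.0 ± 1.19 (adjusted p = 0.603) and for Cxcl10 2.71 ± 1.14 (adjusted p = 0.625). A p that misses the threshold does not show that the regions changed alike.

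**Figure D5:**
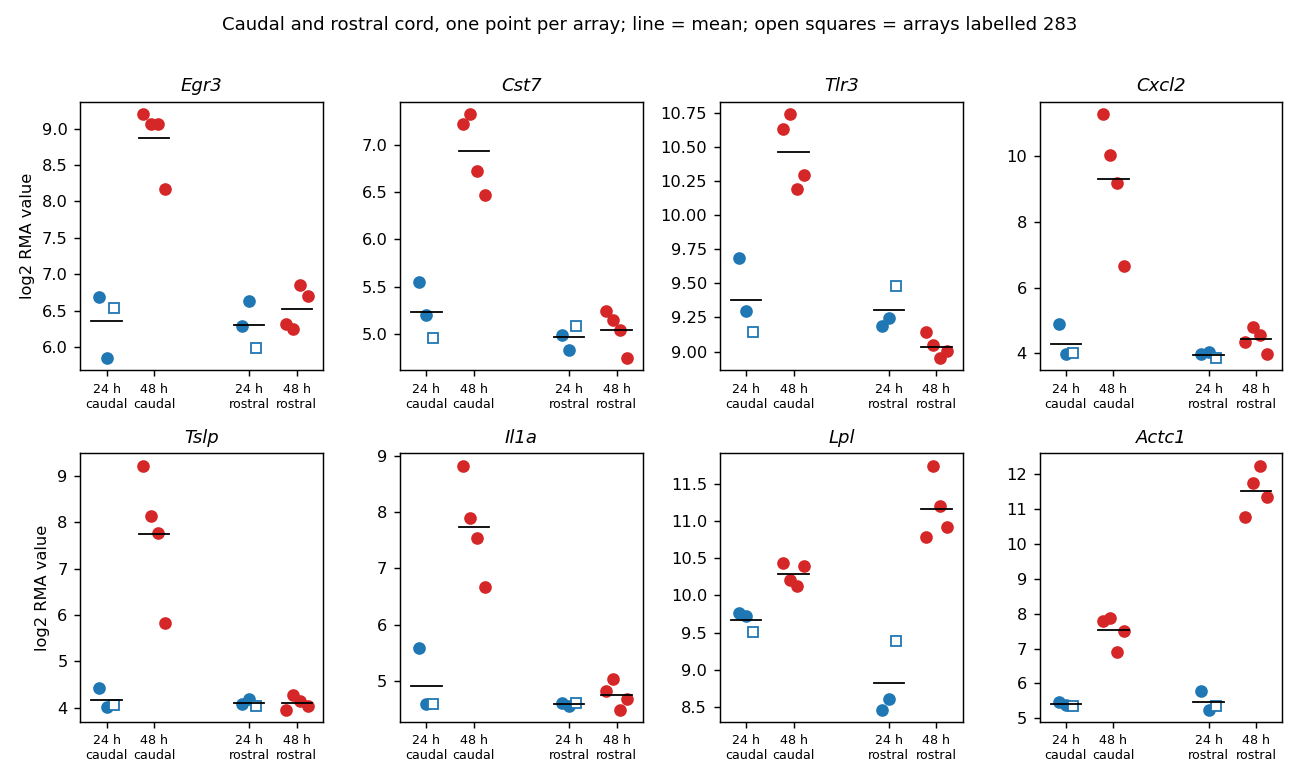
Log2 RMA values at 24 h and 48 h in caudal and rostral cord for 8 genes, with 1 point per array (3 and 4 arrays in each region), group means as lines and both arrays labelled 283 as open squares. Egr3, Cst7, Tlr3, Cxcl2, Tslp and Il1a are higher at 48 h in the caudal panels, while their mean rostral change lay between −0.27 and 0.47, and Lpl and Actc1 rise further in rostral cord (Actc1 from 5.25 to 5.79 at 24 h to 10.78 to 12.24 at 48 h).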

How the data were processed

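Total RNA of caudal and rostral cord was measured on Affymetrix Mouse430_2 arrays. The deposited values are log2 and, per the submitters' processing notes, the authors made them with RMA (no version is named there). Of 45101 probe sets, 34945 carried 1 gene symbol, and each of 18193 genes was represented by its probe set with the highest mean. Means of 6 groups (21 arrays) were fitted with limma 3.58.1 in R 4.3.3. P-values are two-sided and adjusted by Benjamini-Hochberg over all genes, with a threshold of 0.05. Differences are log2 differences, and ± marks their standard errors from the error pooled over the 6 groups. The fit was tested on simulated data. Array 276, whose labels name both times, was left out of the groups. Promoters are RefSeq's (GRCm38.p6), matched by symbol.

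Named genes were the 15 largest rises and 15 largest falls whose groups did not overlap, up to 4 genes of each list with the smallest p, up to 15 responses present at 24 h and 5 regional differences. Cxcl11, Irf7, Stat2, Ddx58, Arc, Mmp2, Tfpi2, Slc38a3, Ryr2, and regional values beyond those 5, were named after their values had been seen. The comparison, the lists and the rules were chosen with earlier results of these data known. Numbers in the labels do not recur between the compared groups. Across regions, deviations of same-numbered arrays correlated by 0.25 to 0.53 for the 48 h numbers, 0.086 to 0.28 for sham and −0.45 to −0.029 for 24 h, so the numbers were not taken as pairs.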

Additional observations from a re-analysis of the deposited data

Results flagged for a closer look

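The 48 h minus 24 h change of some named genes differed between caudal and rostral cord by limma's test of the difference. It was larger in caudal cord for Cxcl2 by 4.53, Tslp by 3.58, Il1a by 2.65, Cybb by 2.40, Egr3 by 2.29, Cst7 by 1.63, Tlr3 by 1.36 and Fcrls by 1.26, with adjusted p-values from 0.00231 to 0.0394. Of these 8 genes Egr3 passed without both arrays numbered 283. The caudal minus rostral difference was −1.72 for Lpl, −3.94 for Actc1, −2.77 for Cox6a2, −3.95 for Ckmt2, −3.19 for Tnnt2, −2.35 for Myom1 and −3.77 for Myh6, with adjusted p-values from 2.04e-05 to 0.0079.

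Of 142 named genes looked at, 5 had a single 48 h array far from the other 3 by Dixon's criterion. Array 274 was lowest for Gpr84 (8.36), Egr3 (8.18) and Cdkn1a (10.55), and array 271 was highest for Clec7a (12.18) and lowest for Bmp4 (6.54). Chance flags about 1 in 20 independent groups. The 142 genes were chosen by their results and share the same 48 h arrays, so 5 of 142 cannot be judged against that rate.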

How the results depend on the processing

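The 1217 genes that differed between 48 h and 24 h ranged from 256 to 3722 when 1 caudal array was left out. They became 184 without both arrays numbered 283, 3621 without arrays 271 and 274, 427 with a 2-fold minimum, 718 among genes above the median level, 4079 with array weights, 10 in a fit of the 10 caudal arrays and 0 in a fit of the compared groups (1370 at an unadjusted p under 0.05). Without both arrays numbered 283 and caudal arrays 271, 274 and 280, a setting chosen after seeing the data, 2572 passed. For 24 h against sham the single call ranged from 0 to 1 (274 to 723 at an unadjusted p under 0.05 where limma called 0), and was 2 without both arrays numbered 283 and in the added setting, 293 with array weights and 0 with array 276 as rostral 24 h (558 unadjusted). For 48 h against sham the 2279 calls ranged from 801 to 5734, and were 543 with a 2-fold minimum, 5550 without arrays 271 and 274, 142 and 286 in the 2 smaller fits, 3503 over probe sets, 1515 above the median level, 6261 with array weights and 4528 in the added setting. The 35 regional differences ranged from 20 to 160, and were 11 without both arrays numbered 283, 369 without arrays 271 and 274, 1 in the fit of the compared groups, 5 above the median level, 502 with array weights, 19 with array 276 as rostral 24 h and 92 in the added setting. With the number as a replicate block they were 55, and 1255 genes differed between 48 h and 24 h. The 17 genes outside sham at both times ranged from 10 to 46 and were 46 without both arrays numbered 283, and the 4 not called between the times ranged from 2 to 28 and became 34. Ckmt2 turned from 0.60 to −0.0083 with array weights. Leaving out 1 array gave Arc differences of −0.0868 to 0.404 and Stat2 differences of −0.0828 to 0.997. Both turned without array 272, and Arc also without array 282 (−0.0186). The cause of these shifts was not tested. Genes near background have understated folds, and the number of arrays limits the precision.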
